A study of Mus musculus with 2 samples.

Results

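The genes described here encode the protein parts of the cytosolic ribosome. They were taken by name from the deposited count files: every protein-coding gene whose GENCODE M21 symbol is Rpl or Rps with a number (with an a, x, y or l form), Rplp0, Rplp1, Rplp2 or Rpsa. S6 kinases and pseudogenes were left out, and a mean count of at least 10 over the 2 libraries was required. Of 54446 genes in the files 83 carried such a symbol, and 79 of these were measured, 47 of the large and 32 of the small subunit, among 14379 measured genes in all. Pairs of counts below give the control first and IL-36 gamma after it. The least abundant measured member was Rps10, with 53 and 57 counts. Just outside the minimum lay Rpl39l, with 8 counts in each library. RNA came from macrophages grown from bone marrow of C57BL/6 mice, either untreated (control) or exposed to IL-36 gamma, an inflammatory cytokine of the interleukin-1 family. With 1 library in each group the spread between cultures is unknown, and no test across replicates was possible. The sources used here do not give the dose, the exposure time, or how many mice or cultures went into a library. The libraries held 17426367 (control) and 17267900 (IL-36 gamma) counts in genes.

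A ribosome consists of a small subunit, which binds the mRNA and reads its codons, and a large subunit, which joins the amino acids. Each subunit is a core of ribosomal RNA covered by proteins that are needed in equal numbers, apart from the stalk proteins P1 and P2, and most of these proteins come from 1 gene each. Their mRNAs are short, very abundant, and mostly of the terminal oligopyrimidine (TOP) kind: they begin with a C followed by a run of C and T, through which the kinase mTOR and the protein LARP1 control their translation and stability. Activated macrophages need ribosomes to make cytokines and other secreted proteins.

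The start sites are shown for members at both ends of the range of ratios, because a shared first stretch of C and T is what marks TOP mRNAs. The windows hold 30 bases of the coding strand, 15 before the start site annotated by RefSeq (GRCm38.p6, the assembly also called mm10) and 15 from it on, and capitals mark the longest run of C and T. Where RefSeq lists several starts, the window with the longest run was taken. The longest run can lie wholly before the annotated start, as for Rpl19, so its length does not by itself mark a TOP start. The first 4 members were among the highest ratios and the last 4 among the lowest.
Rps21: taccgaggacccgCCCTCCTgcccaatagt
Rpl19: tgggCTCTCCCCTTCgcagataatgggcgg
Rpl7a: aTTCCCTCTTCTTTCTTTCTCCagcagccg
Rpl41: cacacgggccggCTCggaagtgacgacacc
Rpl34: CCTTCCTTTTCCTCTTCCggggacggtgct
Rps27: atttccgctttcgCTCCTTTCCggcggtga
Rpl10: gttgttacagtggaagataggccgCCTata
Rps3a1: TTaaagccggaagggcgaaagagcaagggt

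These windows lie at chr2:180257364-180257393 on the plus strand for Rps21, chr11:98026909-98026938 on the plus strand for Rpl19, chr2:26910792-26910821 on the plus strand for Rpl7a and chr10:128549154-128549183 on the minus strand for Rpl41. They lie at chr3:130730323-130730352 (minus) for Rpl34, chr3:90213634-90213663 (minus) for Rps27, chrX:74270801-74270830 (plus) for Rpl10 and chr3:86142654-86142683 (minus) for Rps3a1. Longer and shorter runs occurred at both ends: Rpl7a, with a high ratio, and Rpl34, with a low one, had runs of 21 and 18 bases, while Rpl41 and Rps3a1 had 3 and 2. RefSeq windows were found for 59 of the 79 members, with 70 start sites. A run of at least 8 C or T within 20 bases of the start was present in 44.3% of these and in 16% of all 32851 windows. Such a run may lie before or after the start. The start base was a C in 31.4% of member windows and 16.3% of all. At least 5 C or T in a row from the start base on were present in 22.9% and 4.4%. Short motifs were searched on both strands from 250 bases before to 50 after the start. The letters CCGGAAG, the core of sites for ETS factors, were present in 37.1% of member windows and 8.86% of all. The core of YY1 sites, ATGGCG, was present in 31.4% and 8.93%. The Sp1 box GGGCGG was present in 62.9% and 35.7%. The TATA box TATAAA was present in 10% and 13.6%. A match is a string of letters and not a shown binding site. Members with a run of 8 or more had a median ratio of 1.2 (30 genes, 1.12 to 1.4) and those without 1.21 (29 genes, 1.1 to 1.46). The medians lay close together and the ranges overlapped.

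Ribosomal protein mRNAs were slightly more abundant in the IL-36 gamma library, and the direction was the same for all measured members. Ratios divide the IL-36 gamma count by the control count after TMM scaling, and the interval of each is an exact 95% (Clopper-Pearson) interval of the split of the 2 counts, which covers counting error only. All 79 members had a ratio above 1, from 1.1 for Rpl7l1 to 1.46 for Rps21, with a median of 1.21 (log2 0.27). The whole interval lay above 1 for 77 members and below 1 for 0, against 19.1% of all measured genes above and 17.4% below. It lay above 1.2 for 23 members (29.1%), against 2.39% of all measured genes, and past 2-fold for none of the 79, against 0.167%. The members with an interval that included 1 were Rpl13a and Rps10, both with few counts. Over all measured genes the median log2 ratio was 0.00, and it moved to -0.05 with scaling by total counts. With that scaling the members' median was 0.22, and 7 members lay above 1.2, against 1.54% of all measured genes.

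**Figure D1:**
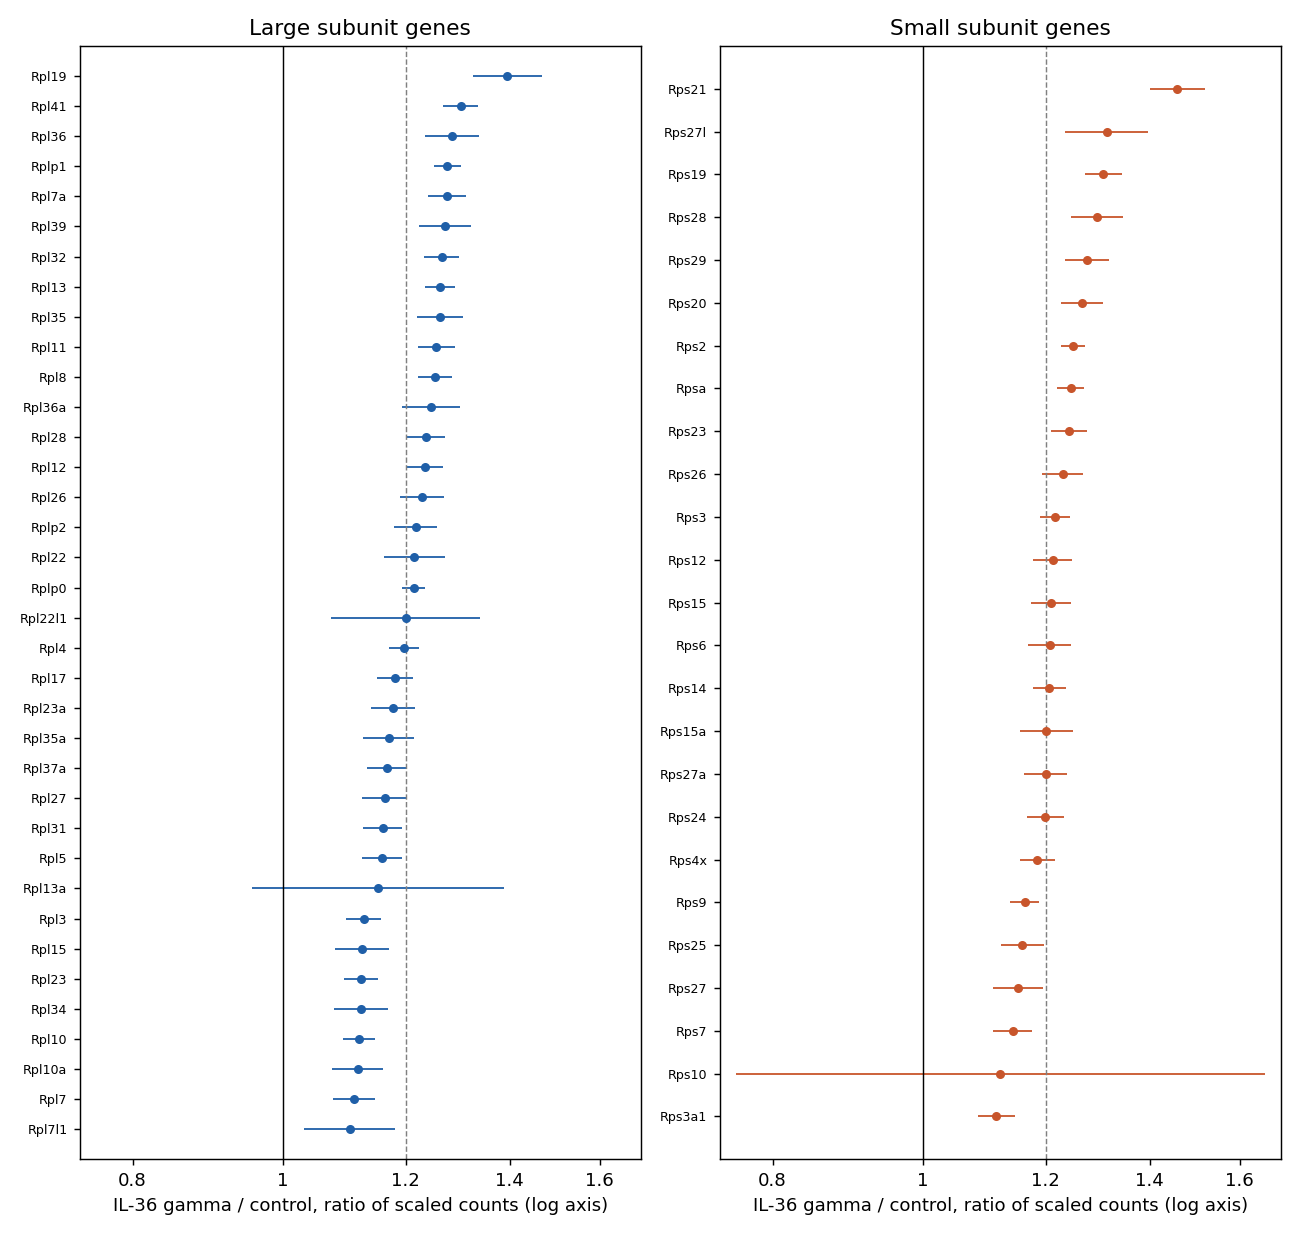
Ratio of scaled counts, IL-36 gamma over control (log axis), for the members named in the text, 36 of the large subunit (left) and 25 of the small subunit (right); bars are 95% intervals of counting error, the solid line is a ratio of 1 and the dashed line 1.2. All points lie above 1, and the bars of Rpl13a and Rps10 reach below it.

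Short, abundant mRNAs in general were higher in the same library, and the ribosomal protein mRNAs are short and abundant. Outside the group, 3291 protein-coding genes averaged 1000 counts or more, and of these 40.7% had an interval above 1 and 3.74% above 1.2. Of the 235 of these whose mRNA has at most 1000 bases, 83% lay above 1 and 13.6% above 1.2, with a median ratio of 1.17. The 58 members of the same length and count all lay above 1, 20 of them above 1.2, with a median of 1.22. For the 1522 abundant genes with an mRNA of over 3000 bases the median ratio was 0.959. When the trend of log2 ratio on mRNA length in abundant non-members was subtracted, an alternative chosen after seeing the data, the members' median was 1.04 (log2 0.06). This was possible for 76 members, of which 43 then lay above 1 and 5 below, against 27.7% above and 25.1% below among all 3367 protein-coding genes of that abundance. Among those below were Rpl10 (0.973), Rpl10a (0.958), Rpl34 (0.957) and Rps27 (0.942). Past 1.2 were 2 of the 76, Rps15a and Rps20, both at 1.27, against 1.6% of the 3367 genes. The annotated mRNAs of Rps15a and Rps20 are unusually long for the group. Next came Rpl19 (interval 1.14 to 1.27) and Rps21 (1.15 to 1.25). What part of the members' difference goes with length and what part with IL-36 gamma cannot be told apart in 1 library per group.

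**Figure D2:**
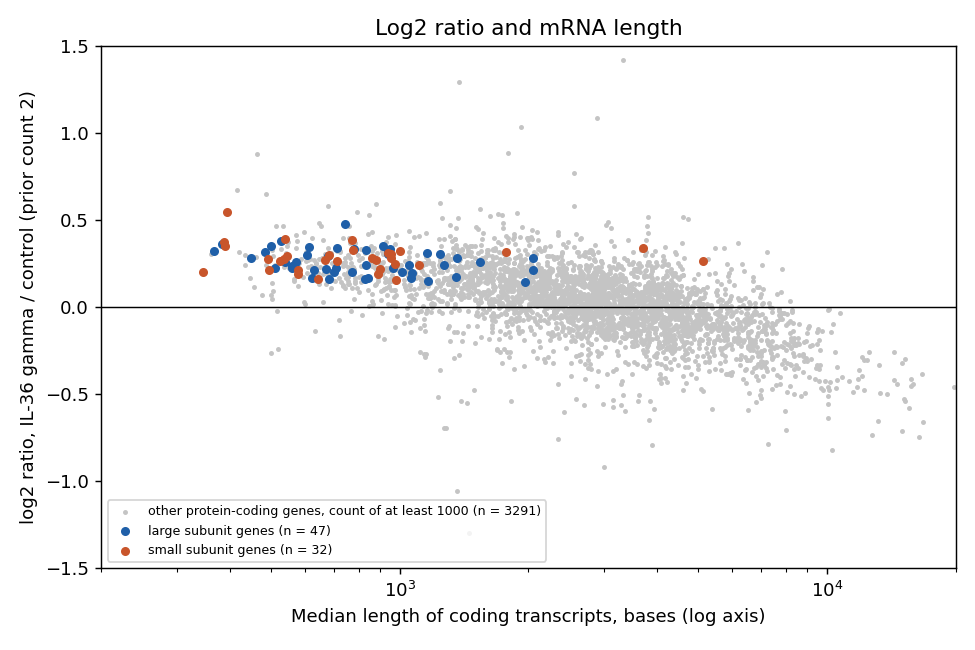
Log2 ratio against median length of the coding transcripts (log axis); grey points are the 3291 abundant protein-coding genes outside the group, coloured points are the ribosomal protein genes of each subunit. Ratios fall with length among the grey points, and 56 of the 79 members have a ratio above the median of the short grey points, 1.17. Values beyond 1.5 in either direction are not shown.

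The members stood closer together than other abundant genes. For the 74 members with over 2000 control counts the standard deviation of log2 ratios was 0.073. Counting error alone would give 0.023, the 235 short abundant non-members had 0.149, and all 3291 abundant non-members had 0.207. The non-members start at a lower count, a mean of 1000, so counting error can be larger among them, and it was not computed. The spread of the 3291 also holds the trend with length. The middle 50% of members spanned ratios of 1.16 to 1.25. Of the 235 short abundant non-members, 74 (31.5%) had a ratio at or above the members' median. That group was wider, from 0.833 to 1.84, than the members were.

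**Figure D3:**
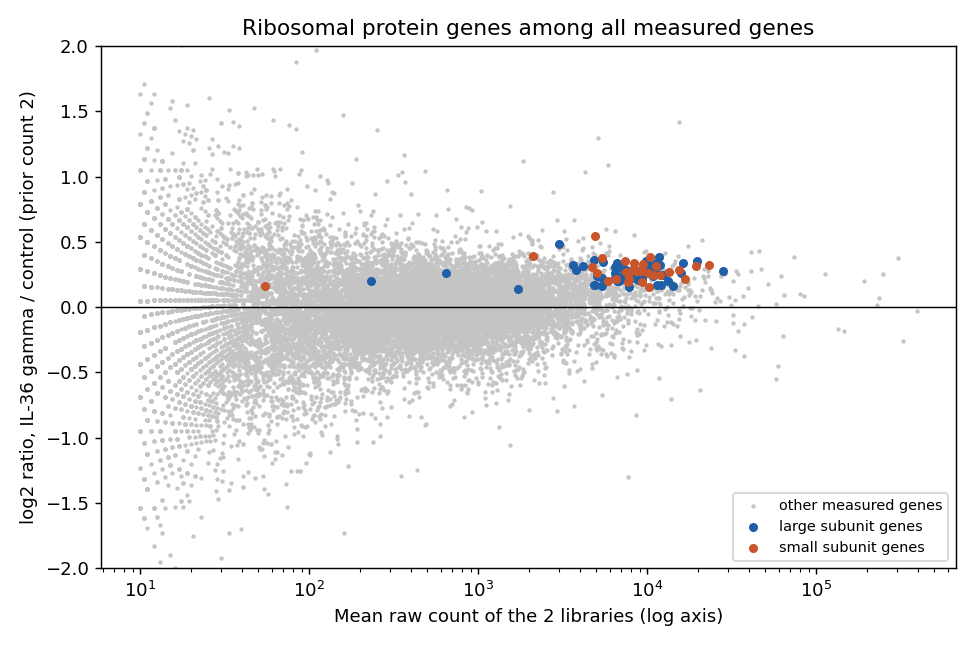
Log2 ratio (prior count 2) against the mean raw count of the 2 libraries (log axis) for all measured genes, with the members coloured by subunit; genes beyond 2 in either direction are not shown. The 74 members with over 2000 control counts form a narrow band above 0.

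Both subunits were higher, and over all members their medians were close. Large subunit genes had a median ratio of 1.2 (46 of 47 intervals above 1, 13 above 1.2) and small subunit genes 1.21 (31 of 32 above 1, 10 above 1.2). Their summed counts gave 376218 and 434157 for the large subunit, a ratio of 1.2 (1.2 to 1.21), and 274573 and 320231 for the small subunit, a ratio of 1.22 (1.21 to 1.22). The large subunit took 57.8% of all ribosomal protein counts in the control (57.69 to 57.93) and 57.6% with IL-36 gamma (57.44 to 57.66). Among members with at most 50% of their 31-base words shared with other genes' transcripts, a subset chosen after seeing the data, the median log2 ratio was 0.23 for the large and 0.31 for the small subunit, a difference of -0.08 against -0.02 over all members. Without members overlapped by a gene on the opposite strand the difference was -0.03. The intervals of the shares of counts do not overlap, but the difference is small and the variation between cultures was not measured. All ribosomal protein counts together made up 3.73% of gene counts in the control (3.73 to 3.74) and 4.37% with IL-36 gamma (4.36 to 4.38), shares that do not depend on scaling between libraries.

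In the large subunit the acidic stalk, which recruits elongation factors, was near or above the median of all members. Rplp1, the most abundant member per length, had 17779 and 21771 counts, and its ratio was 1.28 (1.25 to 1.3). Its partner Rplp2 had 6868 and 8025 counts (1.22), the stalk base gene Rplp0 25857 and 30125 (1.21) and Rpl12, which sits beside it, 9925 and 11765 (1.24). Rplp0, a gene often used as a reference in quantitative PCR, therefore differed between these libraries, with an interval of 1.19 to 1.23. Of the proteins that carry the 5S ribosomal RNA and, outside the ribosome, hold back the p53 regulator Mdm2, Rpl11 had 9205 and 11091 counts (1.26, 1.22 to 1.29) and Rpl5 8373 and 9303 (1.16, 1.12 to 1.19). Their intervals do not overlap, but with the mRNA length trend removed they do: Rpl11 was then at 1.09 (1.06 to 1.12) and Rpl5, whose annotated mRNA is longer, at 1.07 (1.04 to 1.11).

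The genes around the peptide exit tunnel were all above 1, from 1.16 for Rpl31 to 1.4 for Rpl19. Rpl19 (chr11:98026710-98030492) had 2585 and 3461 counts and the highest ratio of the large subunit, 1.4 (1.33 to 1.47). The small basic protein Rpl39, which lines the tunnel, had 4898 and 5978 counts (1.27). At the tunnel rim, where signal recognition particle and chaperones dock, Rpl35 had 6018 and 7292 counts (1.26), Rpl26 6458 and 7617 (1.23), Rpl23a 6707 and 7575 (1.18) and Rpl17 10082 and 11430 (1.18). Rpl4, which reaches into the tunnel wall, had 14802 and 16999 (1.2) and Rpl22 3480 and 4058 (1.22). Of these 9 genes 3 (33.3%) lay above 1.2 over their whole interval, close to the 29.1% of all members.

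Near the peptidyl transferase centre the members divided. Rpl8 had 10841 and 13037 counts, a ratio of 1.25 (1.22 to 1.29). Rpl3 had 10930 and 11822 (1.13, 1.1 to 1.16) and Rpl10, the last protein added before the subunit becomes active, 13650 and 14662 (1.12, 1.09 to 1.15). Rpl3 and Rpl10 had intervals wholly below that of Rpl8.

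Among the other large subunit genes the highest were Rpl41, which encodes a peptide that is among the shortest known in the cell (10415 and 13014 counts, ratio 1.3, 1.27 to 1.34), Rpl36 (4313 and 5320, 1.29) and Rpl7a (8808 and 10777, 1.27). Rpl32, Rpl13 and Rpl28 also had whole intervals above 1.2. The lowest were Rpl7l1, Rpl7 (7586 and 8089 counts, ratio 1.11, 1.08 to 1.15), Rpl10a (5202 and 5577, 1.12), Rpl10 and Rpl34 (4710 and 5076, 1.12). The intervals of the latter 5 all lay wholly above 1 and wholly below 1.2.

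In the small subunit Rps21 (chr2:180257377-180258445) had the highest ratio of all members. It had 4104 and 5746 counts, and the ratio was 1.46 (1.4 to 1.52). Of the proteins at the mRNA entry, Rps2 had 21135 and 25341 counts (1.25, 1.23 to 1.27), Rps3 14145 and 16520 (1.22) and Rps9 15729 and 17562 (1.16, 1.14 to 1.19). In the decoding site and head, Rps29 had 6677 and 8173 (1.28), Rps23 10265 and 12231 (1.24), Rps12 8640 and 10055 (1.21) and Rps15 8011 and 9299 (1.21). At the mRNA exit and platform, Rps28 had 4793 and 5954 (1.29), Rpsa, which is also described as a laminin receptor, 17665 and 21111 (1.25), Rps26 7617 and 8995 (1.23) and Rps14 12441 and 14403 (1.21). All 11 of these genes had intervals above 1, and Rps2, Rps29, Rps23, Rps28 and Rpsa had intervals above 1.2. Over all members 97.5% of intervals lay above 1 and 29.1% above 1.2.

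Rps6, whose protein is phosphorylated by S6 kinases downstream of mTOR, was at the members' median, with 6928 and 8023 counts and a ratio of 1.21 (1.17 to 1.25). Rps27a, which is made as a fusion to ubiquitin, had 7230 and 8326 counts (1.2, 1.16 to 1.24). Rps19, the gene most often mutated in Diamond-Blackfan anaemia, had 9229 and 11571 counts (1.31, 1.27 to 1.34). Rps20 (7493 and 9104, 1.27) also had an interval above 1.2. Among the lowest of the subunit were Rps3a1 (9917 and 10613 counts, 1.12, 1.08 to 1.15), Rps10, Rps7 (8886 and 9745, 1.14) and Rps27 (5542 and 6124, 1.15, 1.11 to 1.19).

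Genes that are second copies of a ribosomal protein gene, of which 3 were measured, were less abundant than the standard copies. Ratios were close to those of the standard copies for Rpl22l1 and Rpl7l1, and higher for Rps27l. Rps27l, a target of p53, had 1871 and 2358 counts, and its ratio was 1.31 (1.24 to 1.4). The standard copy Rps27 had a ratio of 1.15, and the intervals of the pair do not overlap. Rpl22l1 had 602 and 693 counts (1.2, 1.07 to 1.34), close to Rpl22 at 1.22. Rpl7l1, a protein of ribosome assembly, had 1671 and 1770 counts (1.1, 1.03 to 1.18), close to Rpl7 at 1.11. With scaling by total counts the interval of Rpl7l1 included 1. All 6 copies, measured or not, took 0.638% of ribosomal protein counts in the control (0.619 to 0.658) and 0.642% after IL-36 gamma (0.624 to 0.66).

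The members that were not measured were mostly copies known from other tissues. Rpl10l, known from testis, had 0 counts in both libraries, which allows up to 0.169 CPM (counts relative to the scaled library total) in the control and 0.176 after IL-36 gamma, the level of 3 counts. Rpl3l, known from muscle, had 0 and 11 counts, and the lower limit of the interval of its ratio was 2.62. Rpl24 is a standard ribosomal protein gene, and had 0 and 3 counts. Of its 1030 exonic bases 484 lie also in exons of another gene on the same strand, Gm28037, which had 0 counts in both libraries. Likewise Rps10 (53 and 57 counts) shares 475 of 2311 exonic bases with the gene RPS10-NUDT3, and Rpl13a (219 and 242 counts, interval 0.955 to 1.39) has 748 of 2114 in other genes, among them Gm45713, and both of these partners had 0 counts. Reads that fall in 2 genes are set aside by the authors' counter as ambiguous, and they made up 1.79% and 1.84% of the libraries' totals. Whether this set the low counts of these 3 genes was not tested, so their levels are uncertain.

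Levels per length spanned a wide range in the control. It was 433-fold over all measured members, and 41.7-fold without Rps10 and Rpl13a, whose levels are uncertain. The 41.7-fold range runs from Rpl7l1, a second copy, to Rplp1. Given as CPM per kilobase of mRNA (median length of the basic protein-coding transcripts), the most abundant in the control were Rplp1 at 2012 and Rps2 at 1196. Rpl41 at 1117, Rplp0 at 1075 and Rpl13 at 1067 followed in the large subunit, and Rps14 at 1053, Rps24 at 1014, Rps12 at 992 and Rps9 at 991 in the small subunit. With IL-36 gamma Rplp1 was at 2567 CPM per kilobase, Rps2 at 1494 and Rpl41 at 1455. At the lower end in the control were Rps15a at 51.2, Rpl7l1 at 48.2, Rpl13a at 16 and Rps10 at 4.65. The annotated length of Rps15a is 5130 bases and that of Rps20 3706, far above the members' median of 774, and their levels per length rest on these annotated lengths.

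**Figure D4:**
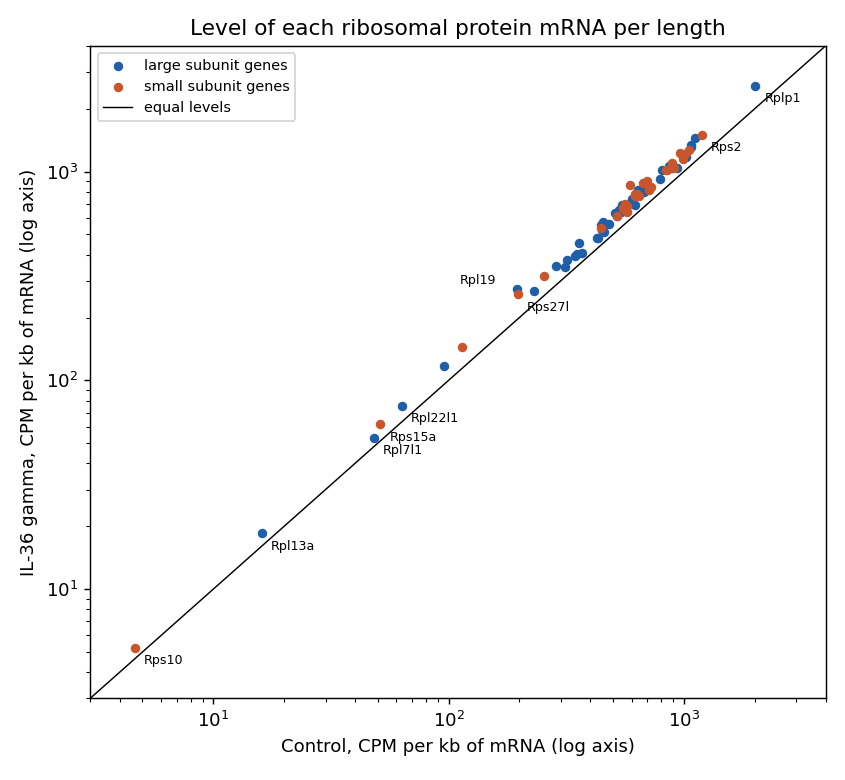
Level of each of the 79 members in CPM per kilobase of mRNA in the control (x) and with IL-36 gamma (y), both on log axes, coloured by subunit; the line marks equal levels. All points lie above the line, from Rps10 at 4.65 to Rplp1 at 2012 in the control.

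Members were also compared by features that played no part in their choice. Proteins that bacterial ribosomes have too had a median ratio of 1.18 in the large (18 genes) and 1.22 in the small subunit (15 genes). Proteins without a bacterial counterpart had 1.22 (27 genes) and 1.2 (16 genes), so the order was opposite in the 2 subunits. Second copies were left out of these groups. A small nucleolar RNA, a guide for modifying ribosomal RNA, lies inside 30 of the members, 58 in all. These hosts had a median ratio of 1.2 and the 49 measured members without one 1.21. The nucleolar RNAs themselves summed to only 82 and 50 counts. The members are spread over 19 chromosomes. The 4 on the X chromosome (Rpl10, Rpl36a, Rpl39 and Rps4x) had ratios of 1.12, 1.25, 1.27 and 1.19. Across the 74 members with over 2000 control counts, all from the same pair of libraries, Spearman's rho of log2 ratio was 0.01 with mean count, -0.19 with mRNA length and 0.29 with GC content.

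Ribosomal protein genes have many processed pseudogenes, and a read that matches gene and pseudogene equally cannot be placed. Of the 31-base words of a member's mRNA, a median of 61.5% also occur in an annotated transcript of another gene, and 54 of 83 members share over 50% of their words. Words were sought on both strands, and genes that overlap a member at the same place were not left out. These shares therefore hold such overlaps as well as pseudogenes. For Rpl35, 821 exonic bases are overlapped on the opposite strand. The share was 9.99% for Rpl8 and 8.95% for Rps3, and 98.7% for Rps27 and 99% for Rpl35. The 26 measured members with at most 50% shared had a median ratio of 1.21 and all had intervals above 1, and the 53 others had a median of 1.2. Rpl8 (1.25) and Rps3 (1.22), which have few shared words, were as high as the group. The 294 pseudogenes named after members summed to 4002 and 4088 counts, 0.0230% and 0.0237% of gene counts. Over the 44 of these that were measured the summed ratio was 1.08 (1.03 to 1.13), below that of the members.

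Ribosomal proteins outside the naming rule had ratios like the members, and elongation factors and mitochondrial ribosomal proteins somewhat lower ones. Of the former, Rack1, a scaffold on the small subunit, had 14509 and 17188 counts (1.23, 1.21 to 1.26) and Fau, which encodes Rps30 fused to a ubiquitin-like protein, 13120 and 15801 (1.25, 1.23 to 1.28). Rpl36al had only 6 and 2 counts. Intervals above 1 were found for 19.1% of all measured genes and 40.7% of the 3291 abundant non-members. Among 19 elongation factors and other mRNAs of the TOP kind, 17 (89.5%) had intervals above 1, with a median ratio of 1.16. Of the most abundant of these, named with their values in view, Eef1a1, which brings aminoacyl-tRNA to the ribosome, had 79110 and 81574 counts (1.07), and Eef2, which moves it along the mRNA, 58047 and 65680 (1.18). The 77 measured mitochondrial ribosomal proteins, which are far less abundant, had a median ratio of 1.14, with 39 (50.6%) above 1 and 1, Mrps2 (0.83), below. Their mRNAs had a median length of 1226 bases, and those of the 19 elongation factors and other TOP genes 1737, against 774 for the cytosolic members. These lists thus differ from the members in length as well, and the part of length in their lower ratios was not tested.

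Genes that build ribosomes did not share the members' uniform direction. For comparison, 19.1% of all measured genes had intervals above 1, 17.4% below 1 and 2.39% above 1.2. Of 44 ribosome assembly factors 13 (29.5%) had intervals above 1 and 2, Nat10 (0.853) and Ltv1 (0.865), below. The list had a median ratio of 1.03 and none past 1.2. The most abundant were nucleolin (Ncl, 4623 and 4550 counts, 1.03), nucleophosmin (Npm1, 3971 and 4199, 1.1) and Eif6, which keeps the subunits apart until the large one is ready (1889 and 1950, 1.08). RNA polymerase I and its factors make ribosomal RNA. Of 18 such genes 6 (33.3%) were above 1 and 2, Taf1a (0.7) and Polr1a (0.88), below, with a median of 1.05. Among 14 genes for the control of TOP mRNAs by mTOR, 2 were above 1 and 6 below. Many of these mRNAs are long, and of the 1522 abundant genes with an mRNA of over 3000 bases 19% lay above 1 and 42.2% below, close to the shares in the list. The 2 above 1 were Eif4ebp1, the translation repressor inhibited by mTOR (1170 and 1469 counts, 1.31, 1.21 to 1.41), and Pabpc1. Pabpc1, the most abundant of the list, had 15091 and 16430 counts (1.13, 1.11 to 1.16). Among the 6 below 1, and named with their values in view, were Rps6kb1, an S6 kinase gene (613 and 457, 0.777, 0.687 to 0.878), Mtor (1065 and 897, 0.878) and Larp1 (3017 and 2617, 0.904). The other S6 kinase gene of the list, Rps6kb2, had 495 and 475 counts and an interval that included 1 (0.88 to 1.14). Of 10 measured importers and chaperones of ribosomal proteins 3 (30%) were above 1 and 1 below. The nascent chain factors Btf3 (1.21) and Naca (1.2) and the histone chaperone Nap1l1 (1.13) were higher, and the import receptor gene Tnpo1 (0.794) lower. The median mRNA length was 2450 bases for the assembly factors and 3834 for the mTOR genes, so these lists differ from the members in length as well. Npm1, Pabpc1, Btf3, Naca and Rack1 each stand in several of the lists.

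**Figure D5:**
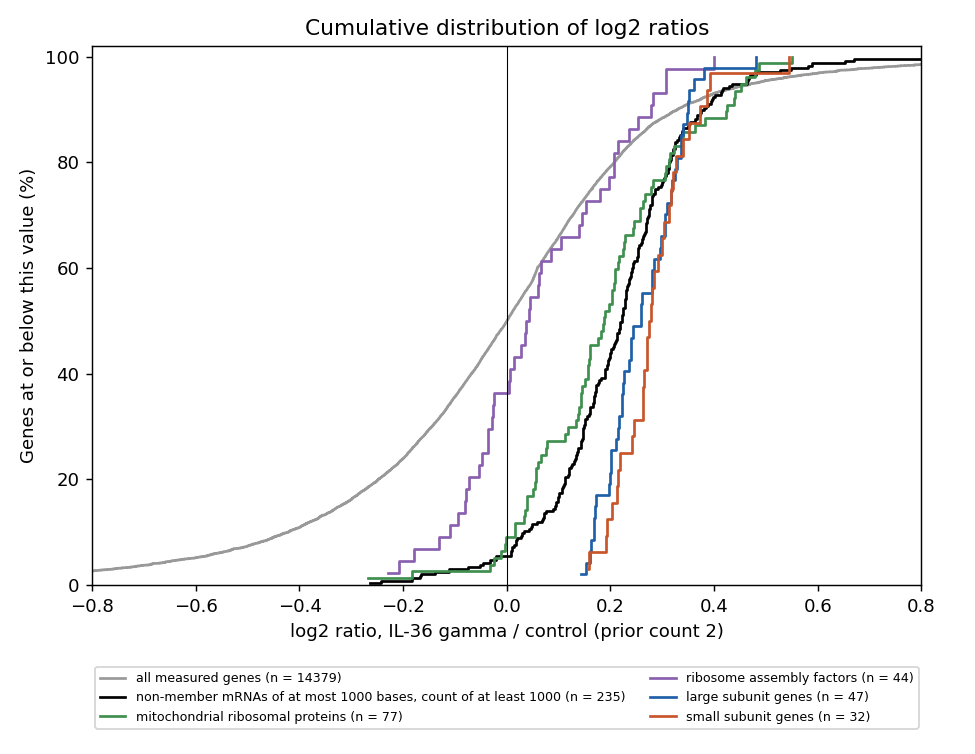
Cumulative percentage of genes (y) at or below each log2 ratio (x) for the large and small subunit genes, mitochondrial ribosomal proteins, ribosome assembly factors, short abundant non-members and all measured genes. The curves of the 2 subunits climb steeply and together near 0.27, to the right of the short abundant non-members at 0.22, and the assembly factors lie near all genes. Values beyond 0.8 in either direction are not shown.

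Other values differed between the same 2 libraries. Here too the shares over all measured genes were 19.1% of intervals above 1 and 17.4% below. Mitochondrially encoded genes held 1.21% and 1.03% of gene counts, with 0 of 11 intervals above 1 and 5 below: mt-Co1 (0.888), mt-Nd6 (0.845), mt-Nd4 (0.827), mt-Cytb (0.819) and mt-Nd5 (0.687). Of the 211532 control counts of these genes mt-Co1 held 145671, while mt-Co2 had 164 and mt-Atp6 55. The shares thus rest mostly on mt-Co1 and need not give the mitochondrial content of the libraries. Over 10 equal groups of genes by exon length, the median log2 ratio went from 0.06 in the shortest and 0.12 in the next to -0.17 in the longest. Macrophage markers summed to 28876 and 28500 CPM, mostly from Lyz2, with 0 of 6 absent. They did not move together: Itgam (1.27) and Adgre1 (1.13) had intervals above 1, and Lyz2 (0.98), Csf1r (0.803) and Mertk (0.78) below. The 8 neutrophil markers summed to 150 and 240 CPM, with 6 of 8 intervals above 1, and the 7 proliferation markers to 751 and 683, with 3 of 7 below 1: Pcna (0.928), Top2a (0.849) and Mki67 (0.702). Median mRNA lengths were 871 bases for the neutrophil and 2814 for the proliferation markers, so these lists differ in length as well. B cell markers (5 genes) summed to 22.9 and 29.2 CPM, nearly all from Cd79b (384 and 490 counts), while Cd79a had 16 and 3 counts. Fibroblast markers (5 genes) summed to 12.1 and 6.89 CPM, and T cell, erythroid and mast cell markers each stayed under 1 CPM, with Cd3e and Cpa3 at 0 in both. The part of other cells or of RNA quality in the members' difference was not tested, and in RNA from a whole culture a different mix of cells and a different amount of mRNA per cell cannot be told apart.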

How the data were processed

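The authors deposited raw counts of reads per Ensembl gene, not normalized, for 1 control and 1 IL-36 gamma library. The submitters' processing notes name HTSeq, STAR 2.5.0a, Trim Galore 0.6.1 and FastQC 0.11.8, with the genome mm10. Neither the strand setting nor the annotation release is given in the sources used here. The counter's rows that name no gene held 47.2% (no feature), 1.79% (ambiguous) and 6.65% (multiple alignments) of the control total and 46.3%, 1.84% and 6.92% of the IL-36 gamma total, and were left out. Multiply aligned reads were not assigned, which lowers the counts of genes with close copies. GENCODE M21, built on that assembly, supplied symbols, lengths and positions (54409 of 54446 gene IDs matched).

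TMM factors (edgeR 4.0.16, R 4.3.3) were 1.02 and 0.984. With 1 library per group no test could be run. Genes averaging 10 counts or more were given a ratio of scaled counts with an exact 95% interval, and log2 ratios used a prior count of 2. PCR copies are not independent molecules, and the intervals and floors hold counting error alone. Other scalings (total counts, upper quartile, DESeq2 1.42.0), filters, priors, bounds and lowess trends (span 0.3) were tried. Words of 31 bases were compared with GENCODE M21 transcripts. Other software was scipy 1.17.1, statsmodels 0.14.6, pandas 2.3.3, numpy 2.4.6, matplotlib 3.10.9 and Python 3.11.15. Members and gene lists were chosen with earlier results of these data known. Members were named by a rule: the 5 highest and lowest ratios per subunit, the most abundant per length, members past 1.2, gene copies, and members with a listed role. Some genes of the other lists were named with their values in view. Some genes are counted in the groups but are not reported here by name.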

Additional observations from a re-analysis of the deposited data

How the results depend on the processing

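All 79 measured members kept a ratio above 1 under the scalings and the planned trends on expression, exon length and GC content, and 77 kept an interval above 1 except with total counts (76). Among all measured genes 14.4% (total counts) to 19.5% (upper quartile) lay above 1 in these settings. The members' median log2 ratio of 0.27 (large 0.26, small 0.28) was 0.22 (0.21 and 0.23) with total counts, 0.18 (0.16 and 0.18) with the expression trend removed and 0.19 (0.19 and 0.20) with the exon length trend removed. The 23 members above 1.2 became 7, 3 and 7 in these settings, 67 with a bound of 1.1 and 2 with 1.3. Among all measured genes the share above 1.2 was 2.39%, and 1.54%, 2.18% and 1.86% in the same settings. For the bounds of 1.1 and 1.3 the share over all genes was not computed. With the mRNA length trend of abundant non-members removed, chosen after seeing the data and possible for 76 members, the median was 0.0630 (0.0584 and 0.0693). In that setting 43 members lay above 1, 5 below and 2 above 1.2, against 27.7%, 25.1% and 1.6% of all 3367 protein-coding genes of that abundance. The log2 ratio of 18 members then turned negative, among them Rpl23a -0.00734, Rpl35a -0.0264, Rpl37a -0.0204, Rpl27 -0.00551, Rpl31 -0.0159, Rpl15 -0.0305, Rpl23 -0.00957, Rpl34 -0.0635, Rpl10 -0.0397, Rpl10a -0.0618, Rpl7 -0.0168, Rps25 -0.0263, Rps27 -0.0866, Rps7 -0.00283 and Rps3a1 -0.0280. The cause of these shifts was not tested.

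Without a count filter 1 member, Rpl3l, lay past 2-fold. Restricting to members with at most 50% of words in annotated transcripts of other genes, also chosen after seeing the data, left 26 members above 1 and 9 above 1.2, because fewer were tested. The shares over all measured genes were 19.1% and 2.39%. The large minus small subunit median was then -0.0769, against -0.0179 with all members, and the large subunit share of counts 41.1% and 40.1%. Without members overlapped on the opposite strand that share was 57.1% and 56.9%. The members' share of protein-coding counts was 3.90% and 4.56%, and with their pseudogenes 3.76% and 4.39% of all gene counts. The same comparison against the whole genome sequence was not run. No paired analysis was possible because each group has 1 library, and for the same reason no replicate could be left out. Counts were too low for a narrow interval for Rps10, Rpl13a and the 4 unmeasured members.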
